A study of Homo sapiens with 38 samples.

Results

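The genes described here are 9 members of 3 families of growth factor signalling: PDGFRA, PDGFRB and the ligand PDGFC, KIT and its ligand KITLG, and FGFR1, FGFR2, FGFR3 and FGFR4. They were chosen by name, with earlier results of these data known. Every probe set that names one of them alone was taken, which gave 36 of the 41097 probe sets that name a single gene. Of these, 28 passed a filter on low signal and 8 did not, and each of the 9 genes kept at least 1 probe set among the 18063 genes tested. The cells were 16R6-4, a single clone derived from the A375 human melanoma line that had acquired resistance to GSK2118436 and is called resistant here, and the A375 line itself, called parental. Both were exposed for 24 h to 0.1 or 1 µM GSK2118436 (GSK436, dabrafenib, a BRAF inhibitor), to 10 or 30 nM GSK1120212 (GSK212, trametinib, a MEK inhibitor), to a combination of 10 nM GSK212 and either GSK436 dose, or to the solvent DMSO. Resistant cells gave 3 arrays for each drug treatment and 2 for DMSO. Parental cells gave 2 arrays for either dose of GSK436 alone and for 30 nM GSK212, and 3 each for 10 nM GSK212, both combinations and DMSO.

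These receptors are tyrosine kinases of the cell surface that pair up when ligand binds, phosphorylate each other and recruit adaptors that activate RAS, the RAF, MEK and ERK kinases and the PI3K pathway. KIT and its ligand, also called stem cell factor, are needed for the migration and survival of melanocytes, the cells from which melanoma arises. PDGFRA and PDGFRB are best known from mesenchymal cells such as fibroblasts and pericytes, and PDGFC is secreted as a latent ligand that binds PDGFRA once cleaved. The 4 FGF receptors bind fibroblast growth factors together with heparan sulphate or klotho co-receptors, and their signal is restrained by ERK-induced inhibitors such as the Sprouty proteins.

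All arrays carried signals at 1 common trimmed mean, with a pooled median of 34.88 units. Precision is limited by how few arrays a group holds. No source says that they came from separate cultures, so a p here speaks only of the scatter among these arrays, which may be technical. The ratio of 3' to 5' actin control signal, which increases when RNA is degraded, ran from 3.72 to 45.0 and exceeded 20 on 15 of 38 arrays, among them all 4 parental arrays with GSK436 alone. Of the melanocyte lineage markers, SOX10 and MIA were near the floor in the clone: their group means of SOX10 and MIA were 2.43 to 10.2 and 8.64 to 42.7 in resistant cells, against 529 to 1303 and 1612 to 3923 in parental cells. MITF, the melanocyte lineage regulator, averaged 1028 to 1392 in resistant groups and 315 to 686 in parental groups, while MLANA, PMEL, TYR and TYRP1 stayed at or below 70.5 in every group of both lines. The 8 genes of an ERK output list summed to 975.6 to 1760 units on parental arrays with any drug, against 10922 to 12162 with DMSO. In resistant cells the sum was 6659 to 9002 with GSK436 alone and 1008 to 1717 with GSK212 or a combination, against 8212 to 8990 with DMSO. In RNA from whole cultures, fewer cells of a type and less RNA per cell cannot be told apart.

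Promoter windows of 300 bases, from 250 before to 50 after an annotated start site, were taken from RefSeq (GRCh38.p14) and were held for 7 of the 9 genes. Those of KITLG, FGFR3 and FGFR4, the members called higher with at least 5 of the 6 treatments in parental cells, are shown for comparison, with the KITLG window at chr12:88580422-88580721 on the minus strand, the FGFR3 window at chr4:1793043-1793342 on the plus strand and the upstream FGFR4 window at chr5:177086665-177086964 on the plus strand. Capitals mark matches, on either strand, to 6 motifs: the AP-1 site TGANTCA, the ETS site CGGAAG, the E-boxes CACGTG and CATGTG, the GC box GGGCGG and the TATA box TATAAA.
KITLG: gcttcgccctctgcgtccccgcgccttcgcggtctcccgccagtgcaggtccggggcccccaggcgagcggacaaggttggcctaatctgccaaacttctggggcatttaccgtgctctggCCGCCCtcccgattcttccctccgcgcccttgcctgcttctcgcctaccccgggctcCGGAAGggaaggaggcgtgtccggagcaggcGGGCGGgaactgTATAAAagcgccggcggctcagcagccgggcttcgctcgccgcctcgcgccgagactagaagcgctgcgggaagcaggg
FGFR3: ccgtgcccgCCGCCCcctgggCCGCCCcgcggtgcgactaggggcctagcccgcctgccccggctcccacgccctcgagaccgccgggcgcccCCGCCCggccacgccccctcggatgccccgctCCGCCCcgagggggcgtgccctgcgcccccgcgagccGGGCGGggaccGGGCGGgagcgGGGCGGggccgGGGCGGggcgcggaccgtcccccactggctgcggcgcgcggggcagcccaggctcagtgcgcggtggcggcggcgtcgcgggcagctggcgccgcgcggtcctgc
FGFR4: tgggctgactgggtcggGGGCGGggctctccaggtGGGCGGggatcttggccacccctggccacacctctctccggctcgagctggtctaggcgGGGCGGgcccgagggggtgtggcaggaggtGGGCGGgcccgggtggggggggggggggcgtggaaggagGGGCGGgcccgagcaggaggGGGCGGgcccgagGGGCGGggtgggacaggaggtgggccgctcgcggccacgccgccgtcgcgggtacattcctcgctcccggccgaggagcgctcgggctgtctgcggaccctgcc
The KITLG window held a TATA box with its first base at position -29 from the start site, an ETS site at -72 and 2 GC boxes. The FGFR3 and FGFR4 windows held 8 and 7 GC boxes, none of the other 5 motifs, and a GC content of 86.3% and 78.7%. Of all 35116 windows in the table, 45.0% held a GC box, 19.5% the ETS site, 11.5% the TATA box, 11.1% CATGTG, 7.71% the AP-1 site and 7.26% CACGTG. A second FGFR4 window, at chr5:177089300-177089599, held 1 CACGTG box and no GC box. PDGFRA, called higher with 1 parental treatment, had a window at chr4:54229043-54229342 with 1 AP-1 site and another at chr4:54233710-54234009 with 2 GC boxes. Among members not called higher in parental cells, the PDGFRB and KIT windows held 2 and 1 GC boxes at a GC content of 59.3% and 74.3%. The FGFR2 windows held from 0 to 5 GC boxes, the last at a GC content of 79.3%. Each match is a description of these letters only.

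Without drug, the question was how the clone differed from its parent. KITLG and PDGFC, both ligands, were higher in resistant cells, and no receptor among the members passed the test in either direction. Thus 2 of 9 members were called (adjusted p under 0.05 and a log2 difference of at least 1), both higher, where 3.64% of all genes were called in either direction and 1.47% higher. The median log2 difference of the 9 was -0.88, beside -0.10 for all genes. The signal of KITLG was 847 and 1259 on the resistant arrays, against 68.5, 61.5 and 38.3 on the parental arrays. Every resistant array lay far above every parental one, by a log2 difference of 4.18 ± 0.37 (SE; adjusted p = 2.64e-10), or 18.1-fold. PDGFC gave 1435 and 1735 in resistant cells, against 770.5, 780.2 and 605.1 in parental cells, a log2 difference of 1.14 ± 0.22 (adjusted p = 7.31e-04). The PDGFC arrays did not overlap, though the call was lost without replicate 2 of resistant DMSO (1.005, adjusted p = 0.0501).

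The other 7 members differed less clearly between the untreated lines. FGFR1 gave 385.4 and 256.4 in resistant cells, against 190.2, 199.5 and 302.7 in parental cells, with overlap and a log2 difference of 0.47 ± 0.22 (adjusted p = 0.283). FGFR3 gave 18.5 and 11.9 in resistant cells, against 36.5, 23.2 and 53.0 in parental cells, without overlap but with a difference of -1.12 ± 0.54 that was not called (adjusted p = 0.324). FGFR4 gave 43.9 and 36.0 in resistant cells, against 23.5, 23.5 and 27.6 in parental cells, again without overlap and without a call (0.63 ± 0.59, adjusted p = 0.728). Arrays of the 2 lines did not overlap for 6 of the 9 members, where this held for 32.8% of all genes. KIT, PDGFRA, PDGFRB and FGFR2 had log2 differences from -1.66 to -0.88 at signals of 38.9 or less, with adjusted p of 0.192 or more.

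In parental cells, each drug and combination was set against DMSO. FGFR3 and KITLG were higher with all 6 treatments and FGFR4 with 5, whereas FGFR1 showed no call with any. In all, 19 of 54 pairs of member and treatment were called, 18 higher and 1 lower, where 14.4% of all pairs of gene and treatment were called, 9.25% higher and 5.15% lower. By treatment, 4 members were called with 0.1 µM GSK436 and 3 with each of the others, beside 17.8% and 19.5% of all genes at the low and high dose of GSK436, 11.7% and 9.89% at those of GSK212, and 10.6% and 17% for the combinations. The 6 comparisons share the same 3 DMSO arrays and are not independent of each other. The median change over all genes was itself 0.17 to 0.39 on the log2 scale in parental cells and 0.05 to 0.22 in resistant cells, and centring each array on its median turned these to -0.43 to -0.12 and -0.30 to -0.19.

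FGFR3, a receptor that is mutated in bladder cancer and in inherited dwarfism, had the widest span of group means among the members, 5.42 on the log2 scale. Its parental signals were 467.4 and 463.6 with 0.1 µM GSK436, 408.6 and 572.4 with 1 µM GSK436, 892.0, 985.1 and 416.5 with 10 nM GSK212, and 372.9 and 470.4 with 30 nM GSK212, against 36.5, 23.2 and 53.0 with DMSO. With 10 nM GSK212 the combination with 0.1 µM GSK436 gave 533.6, 361.1 and 346.6, and that with 1 µM gave 507.1, 411.9 and 630.1. The lowest of the 15 treated arrays, at 346.6, was above the highest DMSO array, and the treated groups overlapped one another. FGFR3 changes were 3.61 ± 0.54 and 3.66 ± 0.54 for 0.1 and 1 µM GSK436, 4.22 ± 0.49 and 3.45 ± 0.54 for 10 and 30 nM GSK212, and 3.41 ± 0.49 and 3.73 ± 0.49 for the combinations (adjusted p from 3.39e-08 to 1.42e-05). With the actin ratio as a covariate these 6 FGFR3 changes were 2.90, 3.08, 3.93, 3.19, 3.38 and 3.26, each still called. FGFR3 exceeded the pooled median on 17 of 18 parental arrays and 4 of 20 resistant arrays, so it passed the filter chiefly through the parental ones.

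KITLG, which was low in untreated parental cells, gave 69.9 and 192.8 with 0.1 µM GSK436, 146.6 and 119.6 with 1 µM GSK436, 141.2, 310.1 and 368.7 with 10 nM GSK212, and 306.7 and 410.6 with 30 nM GSK212, against 68.5, 61.5 and 38.3 with DMSO. The combinations gave 157.6, 280.5 and 252.9 with 0.1 µM GSK436, and 135.9, 230.7 and 216.6 with 1 µM. Treated KITLG signals all lay above the DMSO arrays, although the lowest, with 0.1 µM GSK436, exceeded them by little. The KITLG change was 1.06 ± 0.37 with 0.1 µM GSK436 (adjusted p = 0.0302) and 1.24 ± 0.37 with 1 µM (adjusted p = 0.0101), and both calls were lost when arrays were centred on their medians (0.24 and 0.53), as was that of the combination at 1 µM (1.05, adjusted p = 0.0808). It was 2.16 ± 0.33 with 10 nM GSK212 (adjusted p = 5.05e-06), 2.64 ± 0.37 with 30 nM (adjusted p = 1.82e-06), and 1.98 ± 0.33 and 1.75 ± 0.33 with the combinations (adjusted p = 2.20e-05 and 1.04e-04). Without replicate 3 of 0.1 µM GSK436 that change in KITLG was 0.34, with adjusted p = 0.579. Without DMSO replicate 3 the 0.1 and 1 µM GSK436 calls of KITLG were also lost, and the 1 µM call was lost without replicate 2 of that group.

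FGFR4, the receptor that pairs with klotho beta to bind the bile acid regulator FGF19 in liver, gave 201.7 and 100.3 with 0.1 µM GSK436, 98 and 111.6 with 1 µM GSK436, 132.3, 268.7 and 74.1 with 10 nM GSK212, and 132.2 and 152.4 with 30 nM GSK212, against 23.5, 23.5 and 27.6 with DMSO. The combination with 0.1 µM GSK436 gave 169.4, 111.6 and 78.7, and the combination with 1 µM gave 16.0, 126.2 and 134.8. All treated FGFR4 signals were above DMSO except the first array of that last group, which was the lowest of all 38 arrays for this FGFR4 probe set. FGFR4 changes were 2.40 ± 0.59, 1.96 ± 0.59, 2.36 ± 0.53, 2.39 ± 0.59 and 2.09 ± 0.53 in the same order (adjusted p from 0.00102 to 0.0117), and 1.33 ± 0.53 for the combination with 1 µM (adjusted p = 0.0573). With the actin ratio as a covariate the FGFR4 change with 1 µM GSK436 was 1.63 (adjusted p = 0.0532). Its call was also lost with centring and with quantile normalization (1.47, adjusted p = 0.0649). Leaving out replicate 2 of 0.1 µM GSK436, replicate 3 of 1 µM GSK436 or replicate 3 of 30 nM GSK212 each ended the FGFR4 call of that treatment, with adjusted p up to 0.0988.

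**Figure D1:**
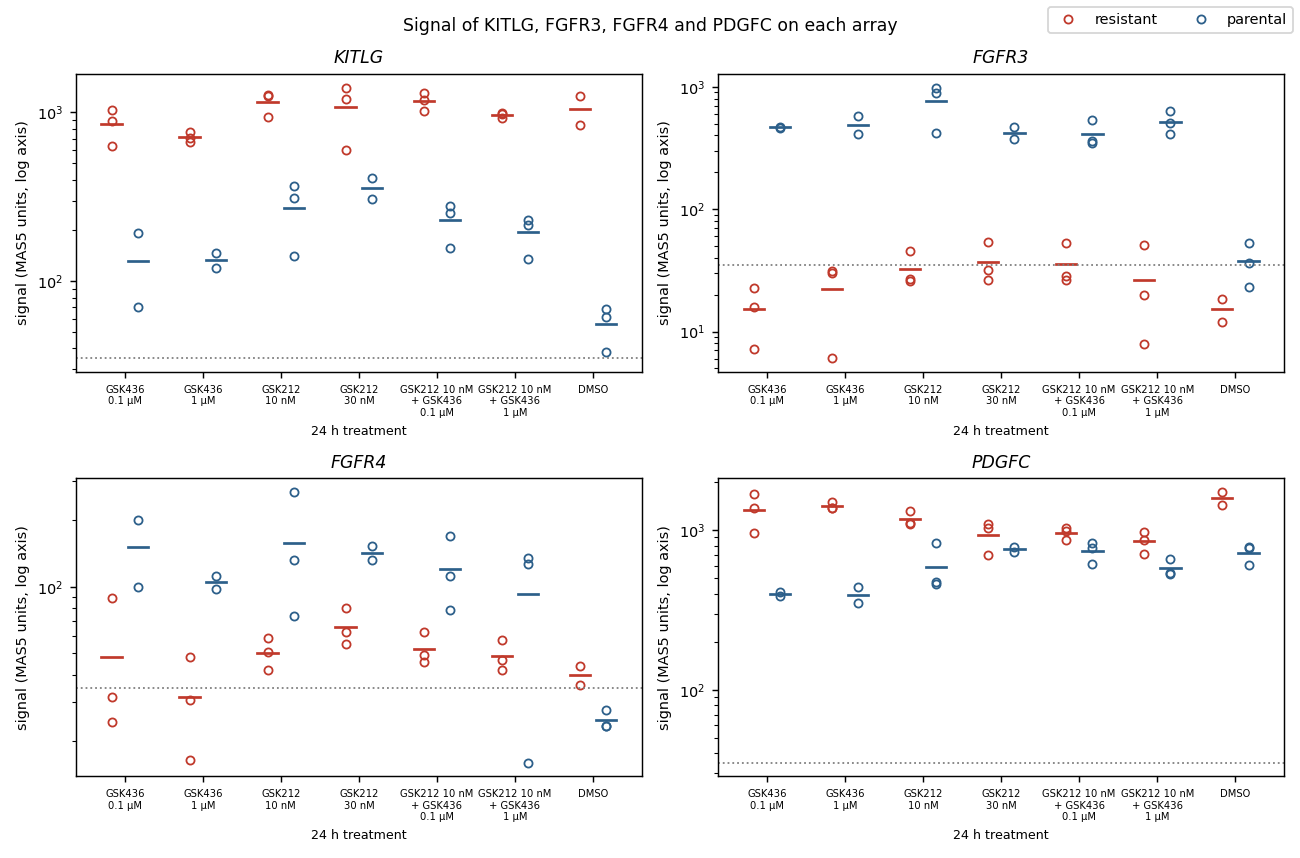
Signal of KITLG, FGFR3, FGFR4 and PDGFC (MAS5 units, log axis) on each of the 38 arrays after 24 h with each treatment, resistant cells in red and parental cells in blue; bars are group means and the dotted line is the pooled median of 34.88. Parental FGFR3 lies between 346.6 and 985.1 with every treatment, against 23.2 to 53.0 with DMSO, while resistant FGFR3 stays at or below 53.7.

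The remaining members changed little or at low signal in parental cells. FGFR1, the FGF receptor whose signal was above the pooled median on all 38 arrays, ranged from 178.7 to 333.1 on the 18 parental arrays. Its log2 changes were -0.13 to 0.48, with 95% intervals reaching from -0.57 to 0.92 over the 6 treatments. PDGFC gave 408.0 and 387.5 with 0.1 µM GSK436 and 438.7 and 348.9 with 1 µM GSK436, against 770.5, 780.2 and 605.1 with DMSO. These 4 arrays of PDGFC were lower than every DMSO array, by log2 changes of -0.84 ± 0.22 and -0.86 ± 0.22 (adjusted p = 0.00544 and 0.00372), which fall short of the fold change needed for a call. PDGFRA was called with 1 treatment, the combination with 1 µM GSK436, where it gave 63.5, 76.0 and 101.4, against 9.58, 4.27 and 19.1 with DMSO. That PDGFRA change of 2.72 ± 0.86 (adjusted p = 0.0166) was 1.63 with the actin ratio as a covariate and was then not called (adjusted p = 0.112). It was also not called without DMSO replicate 2 or replicate 3 of the combination.

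FGFR2 was called lower with 0.1 µM GSK436, at 3.09 and 4.31 against 16.5, 38.9 and 34.6 with DMSO (-2.27 ± 0.80, adjusted p = 0.0328). The FGFR2 signal with 1 µM GSK436 was 69.8 and 25.1, so the higher dose did not show that difference. The FGFR2 call ended without any 1 of 4 arrays (both of 0.1 µM GSK436 and replicates 2 and 3 of DMSO), and with the actin ratio as a covariate (-1.51), and the mean of its probe sets gave a change of -0.07. KIT, with 1 probe set, ranged from 1.73 to 73.7 on parental arrays and exceeded the pooled median on 5 of 18. Its changes of -0.35 to 1.82 had 95% intervals from -2.49 to 3.97 and no call. PDGFRB changed by -0.56 to 1.48 in parental cells, with no call and adjusted p of 0.0882 or more.

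In resistant cells the same treatments were set against the 2 resistant DMSO arrays. PDGFRB was the member that was called, higher with each of the 4 treatments that held GSK212 and with neither dose of GSK436 alone. That is 4 of 54 pairs, all higher, where 3.09% of all pairs of gene and treatment were called and 2.38% were higher. It is 1 of 9 members with each of these treatments, beside 2.77% and 4.31% of all genes with 10 and 30 nM GSK212 and 4.86% and 6.52% with the combinations. With GSK436 alone 0 of 9 members were called at either dose by limma, with 1 member at an unadjusted p under 0.05 for 0.1 µM and 0 for 1 µM, where 0.00554% and 0.0775% of all genes were called. KITLG changed by -0.53 to 0.17, FGFR3 by -0.08 to 1.12 and FGFR4 by -0.41 to 0.67, none of them called.

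The resistant PDGFRB signals were 42.7, 29.5 and 48.0 with 10 nM GSK212, 82.1, 76.4 and 64.8 with 30 nM GSK212, 38.4, 72.9 and 40.8 under the combination holding 0.1 µM GSK436, and 63.9, 50.9 and 57.3 with that at 1 µM, against 5.06 and 2.31 with DMSO. With GSK436 alone PDGFRB gave 16.2, 12.6 and 50.5 at 0.1 µM and 28.0, 20.1 and 2.43 at 1 µM. All 12 resistant arrays with GSK212 were above both DMSO arrays, at signals of 29.5 to 82.1 around the pooled median. The arrays with 0.1 µM GSK436 were above both DMSO arrays as well. The PDGFRB changes were 2.73 ± 0.68 (adjusted p = 0.0123), 3.60 ± 0.68 (adjusted p = 4.59e-04), 3.02 ± 0.68 (adjusted p = 0.00297) and 3.24 ± 0.68 (adjusted p = 9.73e-04). Changes with GSK436 alone were 1.98 ± 0.68 and 1.29 ± 0.68 and were not called. Set directly against 10 nM GSK212, 1 µM GSK436 gave no PDGFRB call. Neither did the combination at 0.1 µM against 0.1 µM GSK436, while that at 1 µM against 1 µM GSK436 was called (1.96). The size of the PDGFRB changes rests on the constant added to low signals. With a constant of 9.88 in place of 2.8 the 4 called changes were 1.87, 2.64, 2.12 and 2.31, and with none 3.52, 4.44, 3.83 and 4.06.

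Both resistant DMSO arrays had low actin ratios, 6.98 and 3.95, whereas the group means for 10 nM GSK212, 30 nM GSK212 and the combinations were 22.7, 20.7, 20.9 and 8.16. With the actin ratio as a covariate the PDGFRB changes were 2.35, 3.34, 2.68 and 3.15, all called, and without the arrays above 20 the change with 10 nM GSK212 was 2.35 and not called (adjusted p = 0.243). The 10 nM GSK212 call of PDGFRB was also lost without either DMSO array or replicate 3 of that group, and the call for the combination at 0.1 µM without DMSO replicate 2. Of 11 fibroblast, mural and endothelial markers measured, 2 were higher and 0 lower with 10 nM GSK212 in resistant cells, lumican (LUM) by 2.70 and COL1A1 by 2.46. Of all genes 2.77% were called there in either direction. The summed signal of that marker list was 2161 to 2533 with 10 nM GSK212, 2260 to 2466 with 30 nM, 2113 to 2463 and 2220 to 2324 with the combinations, and 1361 to 1993 with GSK436 alone, against 1070 to 1423 with DMSO. The sum covers all 12 genes of the list, of which 11 passed the filter. Most of that sum came from a single gene, MCAM, with group means of 977.5 to 1765 in resistant cells and 1038 to 1492 in parental cells. Every other marker of the list was far lower than MCAM in resistant cells, so the sum mainly follows MCAM. Of the endothelial genes, CDH5 and VWF stayed at or below group means of 12.6 and 23.2 in both lines. TEK and PECAM1 reached 47.2 and 98.6 in parental cells and 22.6 and 60.5 in resistant cells. The part of these markers in the PDGFRB result was not tested.

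PDGFC was lower with 30 nM GSK212 and both combinations in resistant cells without reaching the fold threshold. It gave 703.2, 1087 and 1028 with 30 nM GSK212, 987.5, 871.4 and 1031 under the combination holding 0.1 µM GSK436, and 713.6, 973.3 and 866.4 with that at 1 µM, against 1435 and 1735 with DMSO. All 9 of these PDGFC arrays were below both DMSO arrays, with changes of -0.77 ± 0.22 (adjusted p = 0.0277), -0.71 ± 0.22 (adjusted p = 0.0408) and -0.90 ± 0.22 (adjusted p = 0.00576). FGFR1 in resistant cells stayed between 256.4 and 465.3, with changes of -0.04 to 0.55. KIT changed by 0.33 to 1.498, PDGFRA by 0.90 to 2.20 and FGFR2 by 0.16 to 0.88, none of them called, and KIT exceeded the pooled median on 2 of 20 resistant arrays.

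**Figure D2:**
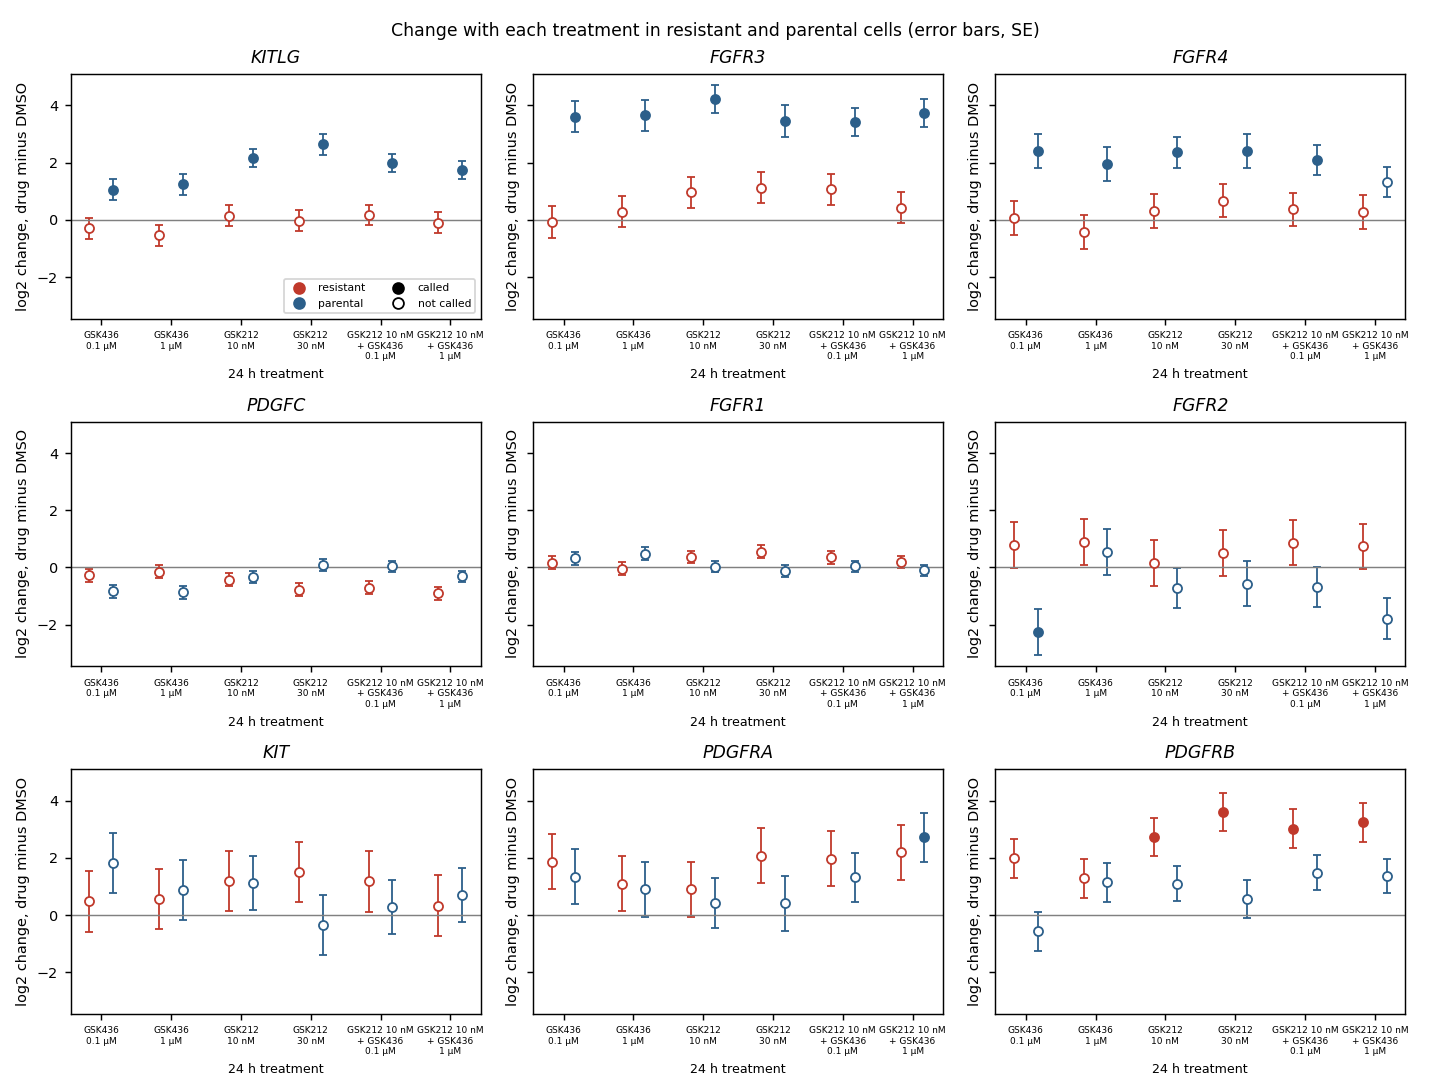
Log2 change of each of the 9 genes with each 24 h treatment against DMSO of the same line (vertical axis), resistant in red and parental in blue, with error bars of 1 SE; filled points passed the test and open points did not. FGFR3 is filled at 3.41 to 4.22 for parental cells and open at -0.08 to 1.12 for resistant cells, and PDGFRB is filled for resistant cells with the 4 treatments that held GSK212.

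Whether the lines differed in their drug changes was tested directly, as the resistant change minus the parental change. FGFR3 and KITLG had the smaller change in resistant cells, and no member had a called difference the other way. Over the 6 treatments 7 of 54 pairs were called, all negative, where 3.28% of all pairs of gene and treatment were called and 1.65% were negative. Calls fell on 1 and 2 members at the low and high dose of GSK436, 2 and 1 at those of GSK212, and 0 and 1 for the combinations, beside 4.17%, 11%, 1.9%, 0.792%, 0.786% and 1.05% of all genes. Where 0 were called by limma, 4 of 9 had an unadjusted p under 0.05. For FGFR3 the difference was -3.68 ± 0.77 with 0.1 µM GSK436 (adjusted p = 0.00249), -3.38 ± 0.77 with 1 µM (adjusted p = 0.0031), -3.26 ± 0.73 for 10 nM GSK212 (adjusted p = 0.0086), and -3.31 ± 0.73 for GSK212 with 1 µM GSK436 (adjusted p = 0.0111). With 30 nM GSK212 and the combination at 0.1 µM the FGFR3 differences were -2.33 ± 0.77 and -2.35 ± 0.73 and were not called (adjusted p = 0.224 and 0.159). The FGFR3 call for 10 nM GSK212 and that for GSK212 with 1 µM GSK436 were lost without resistant DMSO replicate 1. They were also lost without the arrays above an actin ratio of 20, where the FGFR3 differences were -3.25 ± 1.07 (adjusted p = 0.207) and -3.01 ± 1.03 (adjusted p = 0.274), about as large but with a wider error. The last of them was also lost without replicate 1 of that resistant group.

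For KITLG the difference was -1.77 ± 0.52 with 1 µM GSK436 (adjusted p = 0.0203), -2.01 ± 0.49 with 10 nM GSK212 (adjusted p = 0.0187) and -2.68 ± 0.52 with 30 nM GSK212 (adjusted p = 0.00399). It was -1.35 ± 0.52 with 0.1 µM GSK436, -1.81 ± 0.49 and -1.84 ± 0.49 with the combinations, with adjusted p of 0.137, 0.0693 and 0.0537. All 3 called KITLG differences were lost without resistant DMSO replicate 2, and all 3 with centring (-1.29, -2.17 and -2.76). The call for 1 µM GSK436 was also lost without either parental array of that treatment, and that for 10 nM GSK212 without parental DMSO replicate 3, parental replicate 2 or resistant replicate 3 of that treatment. Without the arrays above an actin ratio of 20 the KITLG differences with 10 and 30 nM GSK212 were -1.74 ± 0.49 and -2.10 ± 0.49 and were not called (adjusted p = 0.115 and 0.0700). Those with the combinations were -2.14 ± 0.43 and -2.12 ± 0.47 without these arrays and were called (adjusted p = 0.0222 and 0.0396). FGFR4 differences ran from -2.37 to -1.06 and were not called (adjusted p of 0.0558 or more), and those of PDGFRB ran from 0.14 to 3.04 with adjusted p of 0.129 or more, so a larger PDGFRB change in the clone was not shown.

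Set against each other within a drug treatment, the lines differed in 19 of 54 pairs of member and treatment, 11 higher and 8 lower in resistant cells, where 14.1% of all pairs were called, 5.67% higher and 8.47% lower. Called members numbered 5 and 4 at the low and high dose of GSK436, 3 and 3 at those of GSK212, and 2 and 2 for the combinations, beside 19.1%, 28.4%, 11.6%, 5.82%, 6.36% and 13.4% of all genes. KITLG was higher in resistant cells with every treatment and FGFR3 lower with every treatment. The 18 resistant arrays with drug gave KITLG signals of 599.6 to 1404 with a median of 986.3, and the 15 parental arrays with drug gave 69.9 to 410.6 with a median of 216.6. The lines did not overlap, and the KITLG differences were 2.82 ± 0.37, 2.40 ± 0.37, 2.17 ± 0.33, 1.496 ± 0.37, 2.36 ± 0.33 and 2.33 ± 0.33 for 0.1 and 1 µM GSK436, 10 and 30 nM GSK212 and the 2 combinations (adjusted p of 0.00534 or less). The KITLG call with 30 nM GSK212 was lost without parental replicate 2 of that treatment. With the mean of all probe sets KITLG was not called with 1 µM GSK436 (1.12, adjusted p = 0.0779) or 30 nM GSK212 (1.25, adjusted p = 0.130). The same held for the combination at 0.1 µM GSK436 (1.09, adjusted p = 0.121). Of 2 other KITLG probe sets, 1 had the opposite sign with 0.1 µM GSK436 (-0.34), 1 µM GSK436 (-0.27) and the combination at 1 µM (-0.35). Both had the same sign with the other treatments. FGFR3 signals were 6.03 to 53.7 with a median of 26.5 on the resistant arrays with drug and 346.6 to 985.1 with a median of 467.4 on the parental ones. The FGFR3 differences were -4.80 ± 0.54, -4.50 ± 0.54, -4.38 ± 0.49, -3.45 ± 0.54, -3.47 ± 0.49 and -4.43 ± 0.49 in that order (adjusted p of 2.24e-05 or less). With the mean of all probe sets the FGFR3 call with 30 nM GSK212 was lost (-1.52, adjusted p = 0.149). The other FGFR3 probe set gave 0.41 there and a negative difference with each other treatment.

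PDGFC was higher in resistant cells with 0.1 µM GSK436 (1688, 1379 and 963.2, against 408.0 and 387.5 in parental cells) and with 1 µM GSK436 (1377, 1496 and 1385, against 438.7 and 348.9). Those PDGFC differences were 1.71 ± 0.22 (adjusted p = 3.74e-07) and 1.85 ± 0.22 (adjusted p = 6.00e-08). With 10 nM GSK212 the difference was 1.05 ± 0.20 (adjusted p = 1.63e-04), and it fell below 1 without parental replicate 1, parental replicate 2 or resistant replicate 2 of that treatment. With 30 nM GSK212 and the combination at 0.1 µM GSK436 PDGFC differed by 0.28 ± 0.22 and 0.39 ± 0.20, neither of them called.

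FGFR4 was lower in resistant cells with 0.1 µM GSK436 (31.6, 24.3 and 88.9, against 201.7 and 100.3 in parental cells) and with 1 µM GSK436 (16.5, 47.9 and 30.7, against 98 and 111.6). Neither pair of groups overlapped, and the FGFR4 differences were -1.72 ± 0.59 (adjusted p = 0.0269) and -1.75 ± 0.59 (adjusted p = 0.0183). Both FGFR4 calls were lost with the actin ratio as a covariate, at -1.49 ± 0.59 and -1.47 ± 0.60 (adjusted p = 0.0570 and 0.0557). They were also lost with centring and with quantile normalization (-1.30 and -1.26, adjusted p = 0.108 and 0.101). The first was lost with the mean of probe sets (-1.02, adjusted p = 0.114) and in a fit of only the groups compared (adjusted p = 0.114). It was also lost without parental replicate 2 or resistant replicate 1 or 2. The second was lost without either parental array or resistant replicate 1. Of the 3 other FGFR4 probe sets, 2 had the same sign with 0.1 µM GSK436 and the highest gave 0.20. FGFR1 was called with 30 nM GSK212, at 465.3, 460.9 and 458.6 in resistant cells against 178.7 and 238.6 in parental cells (1.15 ± 0.22, adjusted p = 3.21e-04), and that call was lost without parental replicate 2 (0.94). Its differences with 10 nM GSK212 and the combinations were 0.82, 0.79 and 0.76 (adjusted p of 0.00456 or less), under the fold threshold, and -0.05 ± 0.22 with 1 µM GSK436. With 30 nM GSK212 the mean of all FGFR1 probe sets gave 0.41 and was not called (adjusted p = 0.516). The other 6 FGFR1 probe sets gave -0.35 to 0.73 there, 5 of them positive and none called. FGFR2 was called higher in resistant cells with 0.1 µM GSK436, at 28.4, 34.5 and 18.2 against 3.09 and 4.31 in parental cells (2.16 ± 0.80, adjusted p = 0.0389), but the mean of its probe sets gave -0.46.

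Ordered by group mean, all 7 resistant groups of KITLG stood above all 7 parental groups. The resistant means ran from 713.8 ± 50.9 (SD, n = 3) with 1 µM GSK436 to 1166 ± 141 (n = 3) with the combination at 0.1 µM GSK436, with DMSO at 1053 ± 292 (n = 2), and each group overlapped its neighbours. The parental means ran from 131.3 ± 86.9 (n = 2) with 0.1 µM GSK436 to 358.7 ± 73.5 (n = 2) with 30 nM GSK212, against 56.1 ± 15.8 (n = 3) with DMSO. In that order only 2 steps of KITLG separated neighbours without overlap, from resistant 1 µM GSK436 to parental 30 nM GSK212 and from parental 0.1 µM GSK436 to parental DMSO. FGFR3 had a single such step, from the parental combination at 0.1 µM GSK436 (414 ± 104, n = 3) to parental DMSO (37.6 ± 14.9, n = 3), below which the 7 resistant groups followed down to 15.2 ± 4.67 (n = 2) with DMSO.

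Combinations were compared with their single drugs, and doses and drugs with each other, to see whether the added drug or the higher dose moved these genes further. PDGFRB in resistant cells was higher with the combination at 1 µM GSK436 than with 1 µM GSK436 alone, by 1.96 ± 0.61 (adjusted p = 0.0294). It was the single call among 72 pairs of member and comparison, where 1.54% of all pairs were called, and it was lost without replicate 3 of 1 µM GSK436, which gave 2.43, with centring and without any array of the combination. For FGFR3 in parental cells the combination with 1 µM GSK436 minus GSK436 alone was 0.07 ± 0.54, and minus 10 nM GSK212 it was -0.49 ± 0.49. For KITLG those parental values were 0.51 ± 0.37 and -0.41 ± 0.33. Among doses and drugs 0 of 54 pairs were called by limma, with 8 at an unadjusted p under 0.05, where 0.575% of all pairs were called. The nearest comparison for KITLG, parental 1 µM GSK436 minus 10 nM GSK212, was -0.92 ± 0.37 (adjusted p = 0.187), and FGFR3 with 30 minus 10 nM GSK212 was -0.77 ± 0.54 (adjusted p = 0.768).

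**Figure D3:**
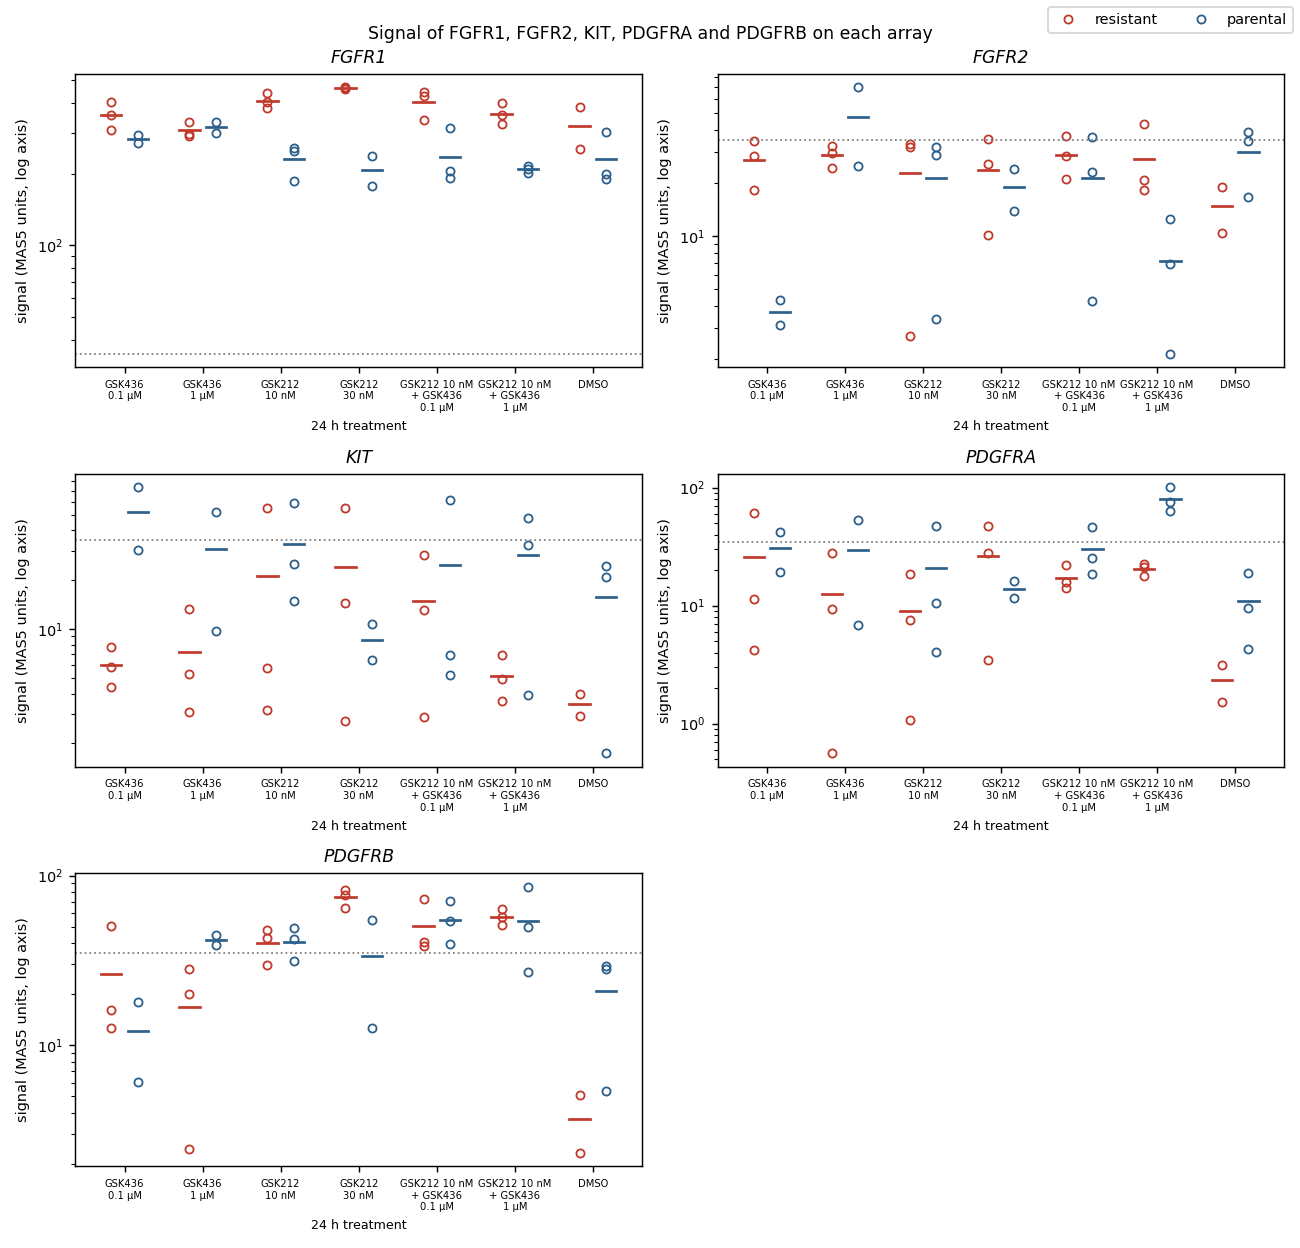
Signal of FGFR1, FGFR2, KIT, PDGFRA and PDGFRB (MAS5 units, log axis) on each array after each 24 h treatment, resistant in red and parental in blue, with bars at group means and a dotted line at the pooled median of 34.88. FGFR1 lies above the line on every array, from 178.7 to 465.3, while the other 4 genes scatter around or below it.

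The 36 probe sets did not all follow the one that stood for its gene, which was the probe set with the highest mean log2 signal. Over the 39 comparisons 61 of the members' 1092 pairs of probe set and comparison were called (5.59%), where 4.47% of all such pairs were called. The second FGFR3 probe set, 204380_s_at, was low throughout, from 0.38 to 47.1, and its parental changes of 0.15 to 1.41 were not called. Its differences in drug change between the lines were -0.56 and -0.55 with 0.1 and 1 µM GSK436. They had the opposite sign to the called ones with 10 nM GSK212 (0.22) and the combination at 1 µM (0.46). None of these was called for 204380_s_at. KITLG had 2 other probe sets that passed the filter, 207029_at at 1.28 to 66.2 and 211124_s_at at 0.89 to 44.8, and neither was called in a comparison in which 226534_at was. With the mean of all probe sets standing for the gene, 5 of the 6 parental KITLG calls and the 7 called differences in drug change of KITLG and FGFR3 were lost, while KITLG was still called between the untreated lines. In untreated cells 207029_at and 211124_s_at gave KITLG differences of the same sign, 1.31 and 2.08. Among parental changes 1 of the 2 went the other way with 0.1 µM GSK436 (-0.74), 10 nM GSK212 (-0.24), 30 nM GSK212 (-1.02) and the combination at 1 µM (-0.93). With the other treatments both KITLG probe sets had the same sign as 226534_at. For the called differences in drug change, 1 of the 2 was positive with 10 nM GSK212 (0.56) and 30 nM GSK212 (0.65), and both were negative with 1 µM GSK436. The second FGFR4 probe set, 1554962_a_at, was called higher in parental cells with 0.1 µM GSK436 (3.22), 1 µM GSK436 (3.10) and 30 nM GSK212 (2.74). Its FGFR4 signals were 67.4 and 44.5 with 1 µM GSK436, against 4.76, 4.32 and 2.90 with DMSO. Its difference between the lines in the change with 1 µM GSK436 was -4.20 ± 1.17 (adjusted p = 0.0214). The size of that difference rests on the constant added to these low signals: it was -2.88 ± 0.83 with 9.88 and -5.40 ± 1.47 with none, called with each.

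The 7 FGFR1 probe sets disagreed. With 1 µM GSK436, 226705_at gave an FGFR1 difference of -0.05 ± 0.22 between resistant and parental cells, whereas 215404_x_at gave -1.59 ± 0.49 and was called (adjusted p = 0.0119). The FGFR1 signals of 215404_x_at were 125.4, 91.3 and 80.2 in resistant cells against 188.2 and 472.6 in parental cells, and the parental array at 472.6 was far above the rest. An x_at probe set can also hybridise to other transcripts. PDGFC 222719_s_at was called with 1 µM GSK436, higher in resistant cells by 4.16 (adjusted p = 8.53e-04), in the same direction as 218718_at. Of 11 FGFR2 probe sets 6 failed the filter and the highest signal of any was 77.7. Whether isoforms differed was not tested.

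**Figure D4:**
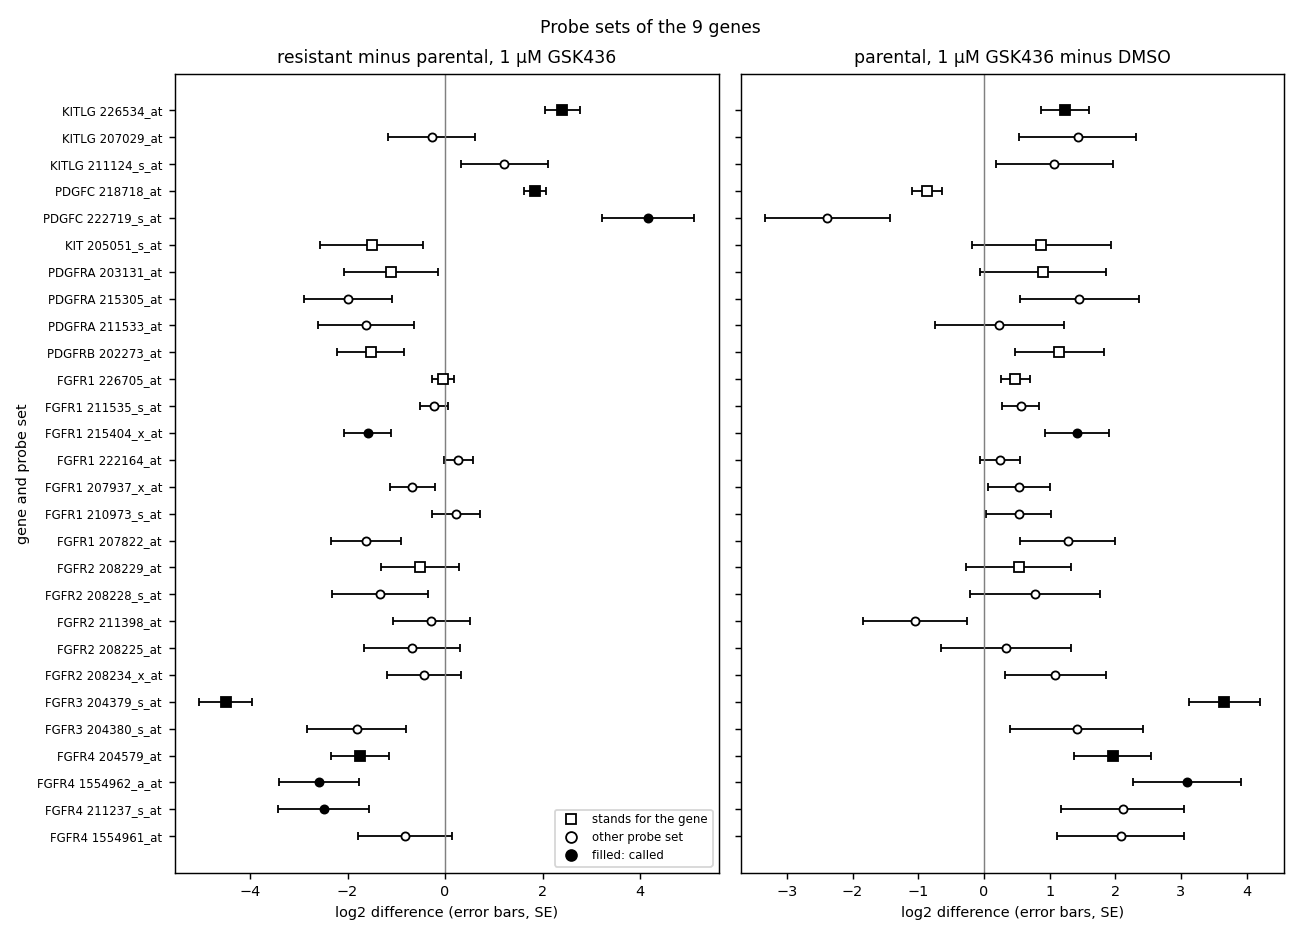
Log2 difference for each of the 28 probe sets that passed the filter (one per row, with the gene name), resistant minus parental with 1 µM GSK436 on the left and parental 1 µM GSK436 minus DMSO on the right, with error bars of 1 SE; squares stand for the gene and filled symbols were called. FGFR4 has 3 filled probe sets on the left, from -2.59 to -1.75, while FGFR1 has 1 filled at -1.59 and the square at -0.05.

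For each member whose group means spanned at least 2 on the log2 scale, the 3 genes most like it were found by Pearson correlation over the 14 group means. These are descriptions over groups that share lines and drugs. Closest to KITLG were P3H2 (r = 0.979), MME (r = 0.979) and LINC01116 (r = 0.968). For FGFR3 they were EPHB3, an ephrin receptor kinase (r = 0.987), the zinc transporter SLC39A11 (r = 0.986) and KIZ (r = 0.985), and for FGFR4 they were EFEMP2 (r = 0.965), PTPRB (r = 0.961) and BCL11A (r = 0.953). For PDGFC they were PRRG1 (r = 0.967), ZNF639 (r = 0.964) and TMEM33 (r = 0.964). The same measure between FGFR3 and FGFR4 was 0.869. Among the low members, PDGFRA was closest to PIWIL1 (r = 0.939), TMC1 (r = 0.934) and MEP1B (r = 0.933), and KIT to TMEM91 (r = 0.939), GUSBP14 (r = 0.938) and DGAT1 (r = 0.937). PDGFRB was closest to FBXO10 (r = 0.909), LOC101929774 (r = 0.890) and BTN2A3P (r = 0.887), and FGFR2 to ZFP69 (r = 0.845), ZNF547 (r = 0.838) and LOC100507250 (r = 0.825).

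Other genes of the same signalling systems were taken from lists drawn up with earlier results of these data known, so their counts are descriptions. Among 18 FGF ligands measured, FGF18 was the single call between the untreated lines, higher in resistant cells by 3.35 ± 0.62 (adjusted p = 3.26e-04), where 3.64% of all genes were called. Parental cells treated with 1 µM GSK436 had 3 FGF ligands higher and 0 lower: FGF1, which binds all 4 FGF receptors, by 2.21 ± 0.65, FGF5 by 2.20 ± 0.65 and FGF11 by 1.55 ± 0.52. The median change of the FGF ligands there was 0.46, beside 0.39 for all genes, of which 19.5% were called. With 10 nM GSK212 in parental cells FGF1 and FGF11 were higher by 2.54 and 1.53 and FGF2, also called basic FGF, lower (-1.36). In resistant cells 0 of the 18 FGF ligands were called with any of the 6 treatments by limma, and between 0 and 2 had an unadjusted p under 0.05. The FGF1 change with 1 µM GSK436 differed between the lines by -2.70 ± 0.92 (adjusted p = 0.0469).

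Of 17 FGF co-receptors and ligand-binding proteins, 1 was higher and 4 were lower in untreated resistant cells, where 3.64% of all genes were called in either direction. SDC2, a heparan sulphate proteoglycan, was higher by 2.18 ± 0.64. FLRT3, a membrane protein that binds FGF receptors, was lower (-5.12 ± 0.43, adjusted p = 1.27e-10), as were IL17RD, the FGF signalling inhibitor also called SEF (-3.57 ± 0.87), the glypican GPC1 (-1.30 ± 0.32) and SDC4 (-1.09 ± 0.24). With 1 µM GSK436 in parental cells 7 of the 17 were higher and 0 lower, led by FLRT1 (2.80 ± 0.56), GPC1 (2.69 ± 0.32), GPC3 (2.66 ± 0.99) and SDC3 (2.42 ± 0.89), with a median of 0.55 beside 0.39 for all genes. Of all genes 19.5% were called there in either direction. With 10 nM GSK212, GPC1 was higher by 2.44 ± 0.32 in resistant cells and by 2.46 ± 0.29 in parental cells. With 1 µM GSK436 the GPC1 change differed between lines by -2.30 ± 0.46 (adjusted p = 9.24e-04).

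Of 12 other PDGF-family ligands and class III receptors measured, CSF1, the macrophage growth factor, was higher in untreated resistant cells by 1.42 ± 0.29. In parental cells with 1 µM GSK436 VEGFC and VEGFA were lower (-2.16 ± 0.23 and -1.19 ± 0.29) and CSF1R higher by 2.4965 ± 0.93. Of 16 adaptors and proximal kinases, FYN was higher and PLCG1 lower in untreated resistant cells (1.20 ± 0.19 and -1.19 ± 0.34). FYN was higher and GAB2 and CRKL lower with 1 µM GSK436 in parental cells (1.51 ± 0.19, -1.19 ± 0.43 and -1.06 ± 0.22). Of 15 genes of receptor down-regulation, the adaptors GRB14 and GRB10 were higher in untreated resistant cells by 2.58 ± 0.52 and 1.35 ± 0.28. With 1 µM GSK436 in parental cells the ubiquitin ligase CBLB was higher by 2.48 ± 0.30, GRB10 was higher by 1.98 ± 0.28, and GRB14 and SOCS6 were lower (-1.73 ± 0.52 and -1.36 ± 0.36), with a list median of -0.63. In these comparisons 3.64% of all genes were called between the untreated lines and 19.5% with 1 µM GSK436 in parental cells.

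Of 16 transcription factors listed for these receptor genes and the melanocyte lineage, SOX10 and SOX5 were lower in untreated resistant cells (-6.65 ± 0.58 and -2.47 ± 0.22) and MITF, which activates KIT in melanocytes, was higher by 1.73 ± 0.22. Whether each listed factor acts at these genes in these cells was not tested. With 1 µM GSK436 in parental cells ZEB1 was lower (-1.77 ± 0.28) and PRRX1, ZEB2 and SOX5 higher by 1.34, 1.20 and 1.10. All 8 ERK output genes were lower in parental cells under 1 µM GSK436 and under 10 nM GSK212, with DUSP6 changes of -4.83 ± 0.64 and -7.12 ± 0.57. Of all genes 3.64% were called between the untreated lines, and 19.5% and 11.7% with these parental treatments. In resistant cells 0 of the 8 were called by limma with 1 µM GSK436 (0 at an unadjusted p under 0.05) and 5 were lower with 10 nM GSK212, with a DUSP6 change of -4.68 ± 0.64. Of all genes only 0.0775% and 2.77% were called with these resistant treatments. The DUSP6 change with 1 µM GSK436 differed between the lines by 4.04 ± 0.91 (adjusted p = 0.00278).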

How the data were processed

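Groups were taken from the labels of 38 Affymetrix arrays. The deposited values were linear signal intensities of 54675 probe sets, made by the authors with MAS5 per the submitters' processing notes. Per the labels' protocols, 500 ng of RNA from cells kept in 10% serum were labelled. No genome build for the array values is given in the sources used here; promoter windows came from RefSeq on GRCh38.p14. No detection calls were used. Probe sets were named from the platform annotation, and 41043 of 41097 naming 1 gene were found in RefSeq. Those above the pooled median of 34.88 on at least 2 arrays were kept (35888), and the one with the highest mean log2 signal stood for each of 18063 genes.

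Log2 of signal plus 2.8, the 10th percentile, went into a limma fit (version 3.58.1, R 4.3.3; 14 group means, 24 residual degrees of freedom, eBayes with trend, 39 comparisons). P was adjusted within each comparison by Benjamini and Hochberg over all genes, or over all probe sets where a second probe set is given. Calls required adjusted p below 0.05 and a log2 difference of 1 or more in size. Named genes were all members and their probe sets, the 3 genes most alike to each member with a span of at least 2, and up to 4 called genes per list with the largest change. The members and the 11 gene lists (152 genes, 136 measured) were chosen with earlier results of these data known. The fit was tested on simulated data. Tables and figures were made in Python 3.11.15 with pandas 2.3.3 and matplotlib 3.10.9. Alternatives were other normalization, pseudocount, filter, probe set summary, variance model, sample choice, actin ratio, array weights and leaving out each array.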

Additional observations from a re-analysis of the deposited data

Results flagged for a closer look

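The drug changes of FGFR3 and KITLG, and of a second probe set of FGFR4, differed between the lines by the test of the difference itself (resistant change minus parental change, log2). For FGFR3 the difference was -3.68 with 0.1 µM GSK436, -3.38 with 1 µM GSK436, -3.26 for 10 nM GSK212, and -3.31 for GSK212 with 1 µM GSK436. The low second FGFR3 probe set gave -0.56, -0.55, 0.22 and 0.46 in that order, none of them called. For KITLG it was -1.77 with 1 µM GSK436, -2.01 with 10 nM GSK212 and -2.68 with 30 nM GSK212. Of 2 other KITLG probe sets, 1 was positive with 10 and 30 nM GSK212 (0.56 and 0.65), and neither probe set was called. For the second FGFR4 probe set, 1554962_a_at, it was -4.20 with 1 µM GSK436 (-2.88 with a larger added constant of 9.88, since its parental DMSO signals were 4.76, 4.32 and 2.90), while the probe set that stands for FGFR4 gave -2.37 (adjusted p = 0.0558). All these differences use the same 2 resistant and 3 parental DMSO arrays.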

How the results depend on the processing

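Of 649 repeats of the 52 called member differences under alternatives other than leaving out an array, 581 kept direction and call, 67 kept direction but lost the call and 1 changed sign. The last was FGFR2 with 0.1 µM GSK436 between the lines, at -0.46 with the mean of all probe sets. That mean accounted for 22 of the lost calls and centring on the median for 10. The count of members called between the untreated lines was 1 with the mean of probe sets, beside 2. For resistant treatments it was 0 with the filter at the 75th percentile (128.16), which PDGFRB does not pass, beside 4. For differences between the lines it was 4 with centring, 1 with the mean of probe sets, 11 with the actin covariate and 13 with array weights, beside 7. Without arrays with an actin ratio above 20 it was 2, beside 4 in the 4 comparisons that could be fitted: all 4 of those calls were lost, and KITLG with the combinations was called instead. Within treatments it was 11 with the mean of probe sets, beside 19. For combinations against single drugs it was 0 with centring, 0 with the stricter filter and 3 with array weights, beside 1. The cause of these moves was not tested except where the filter removed the gene. The comparisons of parental 0.1 and 1 µM GSK436 could not be fitted without arrays above an actin ratio of 20.

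Leaving out 1 array at a time gave 1 to 2 calls between untreated lines, 16 to 21 in parental and 2 to 5 in resistant treatments, 4 to 10 for line differences, 17 to 21 within treatments, 0 to 2 for combinations and 0 to 1 for doses and drugs. Without the second resistant DMSO array the counts for untreated lines, resistant treatments and line differences moved by over 1.5 times, the count for combinations moved by as much without any of 6 arrays, and the count for doses and drugs was 1 without the first parental array of 10 nM GSK212. Where a group was left with 1 array, that array was assumed to vary like the other groups. Same-numbered arrays deviated together about as little as differently numbered ones. The median r was 0.009 (-0.32 to 0.28 over 224 pairs) and -0.005 (-0.33 to 0.36 over 445 pairs). Pairs within and across the lines were pooled, so the check cannot decide whether the numbers pair arrays within a line. With the replicate block the counts, in the order just given, were 2, 19, 4, 9, 20, 1 and 0, and 61 for probe sets, and of the 52 called differences 1 was no longer called, KITLG with 0.1 µM GSK436 in parental cells (0.97). Signals near the pooled median limit what can be said of KIT, PDGFRA, PDGFRB and FGFR2.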
